A study of Mus musculus with 4 samples.

Results

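Potassium channel genes are the 92 mouse genes, of 38457 in the deposited tables, whose symbol begins with Kcn followed by a family letter and a number. They code for pore subunits of the voltage-gated, calcium-activated, inwardly rectifying and two-pore channels, for the auxiliary subunits that tune them, and in 1 case for a noncoding RNA. They were chosen by a rule on their names and not by a threshold on any measured value, though earlier results of these data were known. Pseudogenes, opposite-strand transcripts and a pair of further channel genes were left out. All 92 had at least 1 count and 54 had at least 100. Together they held 40915 of 44179931 counts, or 0.0926%.

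The cells came from pancreatic islets of mice labelled Sin3A mutant or WT, with 2 libraries per genotype. Sin3A is a scaffold of histone deacetylase complexes. The labels do not give the allele, the promoter or Cre driver, the strain, the sex or the age, and no treatment is named. Single cells were captured in droplets on the inDrop platform, which reads messenger RNAs near their 3′ ends. Titles carry 1 of 2 closing numbers, each found under both genotypes, and the libraries are called mutant A, mutant B, WT A and WT B after genotype and number. Levels are CPM, the counts of a gene scaled to 1000000 counts of a class of cells in a library. They are not scaled by gene length, so levels are compared between cells and not between genes.

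Potassium channels let potassium leave the cell and pull the membrane towards rest. In the beta cell, glucose metabolism closes ATP-sensitive potassium channels, the membrane depolarises, calcium enters and insulin is released, and voltage-gated and calcium-activated potassium channels then end each action potential. Alpha, delta and PP cells, which secrete glucagon, somatostatin and pancreatic polypeptide, are also electrically excitable. Pericytes, the contractile cells around capillaries, use an ATP-sensitive channel of another subunit makeup to set vessel tone.

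After the filters 1144, 2382, 1207 and 1793 cells were kept in mutant A, mutant B, WT A and WT B, with a median of 7605, 4448.5, 9997 and 5306 counts per cell. Cells were sorted into classes by hormone counts alone, so no channel gene took part in the choice. This gave 761, 870, 670 and 797 insulin cells, 136, 380, 127 and 534 glucagon cells, 36, 81, 50 and 49 somatostatin cells, and 20, 23, 24 and 15 Ppy cells, in the same order of libraries. A further 295 cells held more than 1 hormone and entered no class. Pericyte-like cells, 31, 87, 34 and 32 in number, came from clusters of the remaining cells made without any channel gene and named from Rgs5, Pdgfrb, Cspg4 and other pericyte markers.

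The insulin, glucagon and somatostatin cells carried markers of their names, with 1 exception. Irx2, a transcription factor of alpha cells, stood at 204 to 377 CPM in glucagon cells, against 1.55 to 2.58 CPM in insulin cells. Hhex, the delta cell factor, stood at 364 to 1050 CPM in somatostatin cells. Rgs5 stood at 6685 to 9594 CPM in pericyte-like cells, which were named from it, so that level is no check on the name. Somatostatin cells of mutant A also held 318 CPM of Rgs5 and 28.9 CPM of Pdgfrb. The other libraries of that class held 0 to 16.3 and 0 to 2.56 CPM. The source of this RNA was not tested. Mafa, a factor of mature beta cells, stood at only 0.171 to 0.971 CPM in insulin cells. The RNA of the targeted gene did not follow the labels within A. Sin3a stood at 49.5 and 17.98 CPM in insulin cells of mutant A and mutant B, against 24.9 and 41.0 CPM in those of WT A and WT B. Genotypes are therefore given as labels, and "the library labelled mutant A" is written mutant A for short. Libraries shared 12 to 42 cell barcodes per pair, and 2 barcodes occurred more than once within mutant A.

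Of the 92 channel genes, 30 had enough counts to be compared among insulin, glucagon and somatostatin cells. Each class was set against the mean of the other 2 with edgeR's quasi-likelihood test, the library as a block and p-values adjusted by Benjamini-Hochberg over all 11757 genes tested. A gene is said to mark a class where it was higher there at an adjusted p under 0.05 and its CPM stood above both other classes in each of the 4 libraries. The tested genes are those abundant enough somewhere, so their counts describe the 30 and not all 92. In insulin cells 5 of the 30 were higher and 7 lower, against 16.3% and 9.37% of all genes tested, and 1 marked the class, against 7.45% of all genes. In glucagon cells 7 were higher and 6 lower, against 8.58% and 8.93%, and 5 marked the class, against 5.05%. In somatostatin cells 2 were higher and 1 lower, against 5.61% and 6.54%, and 2 marked the class, against 4.09%. Members marking insulin cells were 3 without mutant A and 2 without mutant B or without WT B, members higher in insulin cells were 3 without mutant B, and members lower in glucagon cells were 3 without mutant B or without WT B. Members lower in somatostatin cells were 2 without WT B. The numbers tested and the shares of all genes called without a library are not given here, so these changes are not read as results about the members. The median log2 difference of the 30 was -0.07 in insulin cells, 0.18 in glucagon cells and 0.12 in somatostatin cells, beside 0.06, 0.05 and -0.11 over all genes tested.

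**Figure D1:**
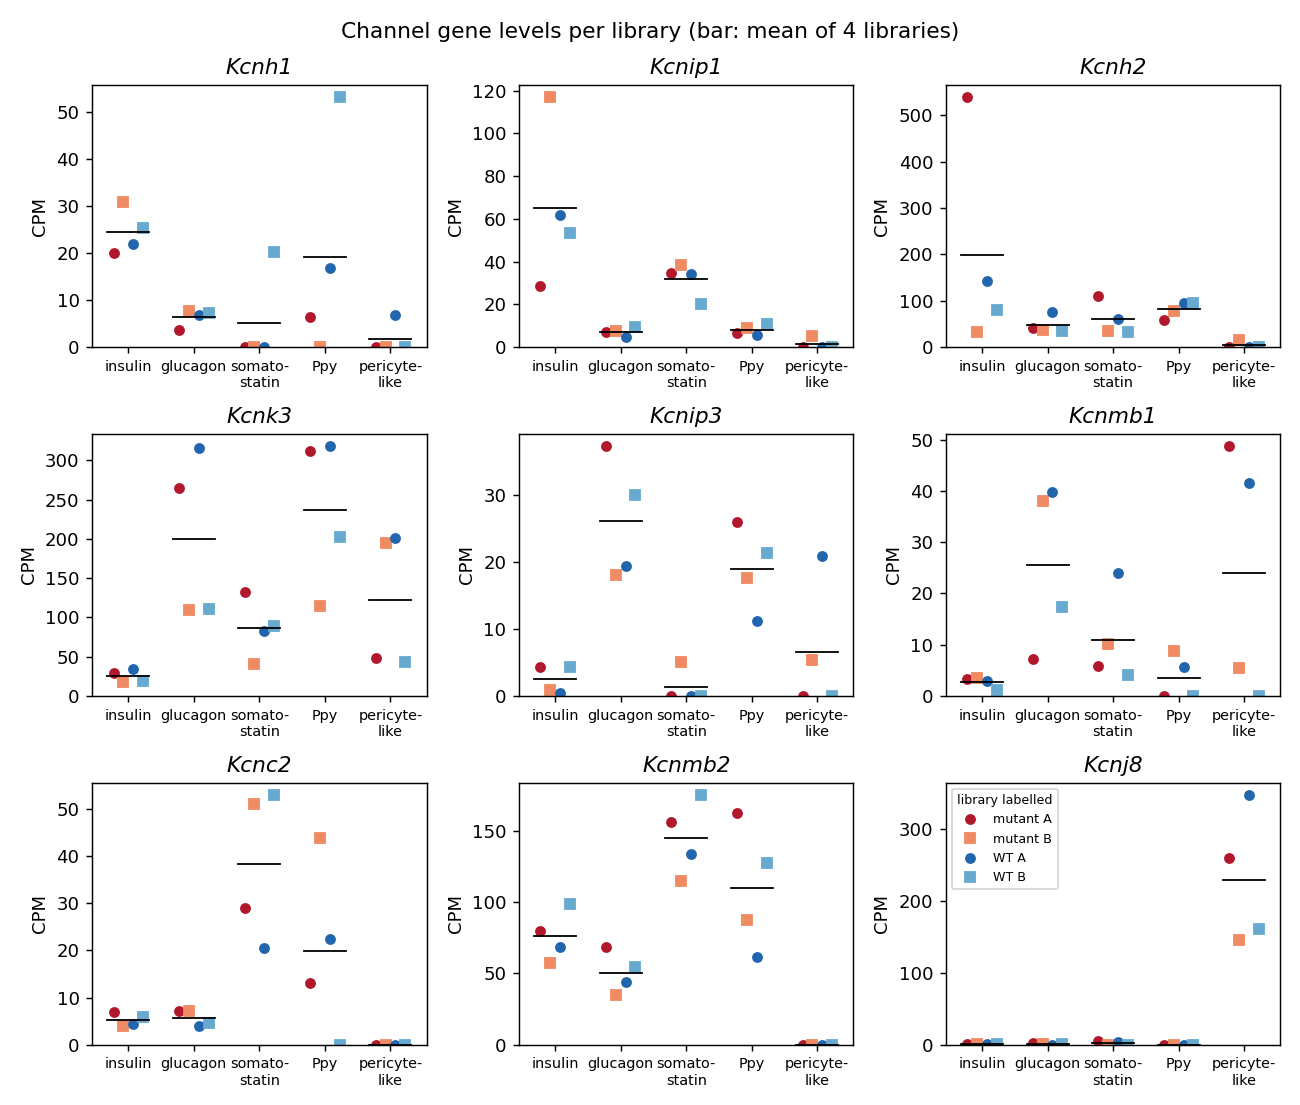
Level in CPM (vertical axes, each from 0) of 9 channel genes in 5 classes of cells. Points are the 4 libraries (red mutant, blue WT, circles A, squares B) and bars their means. Kcnh1 stands highest in insulin cells among the 3 tested classes, Kcnk3, Kcnip3 and Kcnmb1 in glucagon cells, Kcnc2 and Kcnmb2 in somatostatin cells, and Kcnj8 in pericyte-like cells.

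The promoters of one marker per class are printed here so that the genes can be placed in the genome. Each run is the 250 bases before the annotated start in RefSeq's GRCm38.p6, read 5′ to 3′ on the gene's own strand. Capitals mark CANNTG, the E-box read by basic helix-loop-helix factors, which reads the same on both strands.
Kcnh1 (chr1:192190527-192190776, plus strand): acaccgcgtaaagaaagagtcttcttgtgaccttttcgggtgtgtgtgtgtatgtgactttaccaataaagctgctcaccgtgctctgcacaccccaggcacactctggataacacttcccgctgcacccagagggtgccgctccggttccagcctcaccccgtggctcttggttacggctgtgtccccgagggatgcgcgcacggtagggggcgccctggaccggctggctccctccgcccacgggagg
Kcnmb1 (chr11:33962763-33963012, plus strand): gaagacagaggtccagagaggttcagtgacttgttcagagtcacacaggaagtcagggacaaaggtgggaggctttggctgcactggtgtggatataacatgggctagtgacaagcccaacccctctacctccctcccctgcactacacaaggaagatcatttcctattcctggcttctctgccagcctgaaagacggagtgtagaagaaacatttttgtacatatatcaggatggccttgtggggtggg
Kcnmb2 (chr3:31902453-31902702, plus strand): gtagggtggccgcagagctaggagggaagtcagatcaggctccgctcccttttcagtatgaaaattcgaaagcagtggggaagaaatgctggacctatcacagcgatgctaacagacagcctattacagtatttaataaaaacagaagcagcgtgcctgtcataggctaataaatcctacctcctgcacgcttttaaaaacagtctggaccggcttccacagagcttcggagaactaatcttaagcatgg
Kcnj8 (chr6:142571615-142571864, minus strand): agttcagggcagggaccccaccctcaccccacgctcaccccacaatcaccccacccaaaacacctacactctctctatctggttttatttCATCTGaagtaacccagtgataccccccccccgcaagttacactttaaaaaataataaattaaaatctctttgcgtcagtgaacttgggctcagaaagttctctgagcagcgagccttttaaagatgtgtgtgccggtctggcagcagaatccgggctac
The insulin cell marker Kcnh1 holds 17 CG pairs in this window, the somatostatin cell marker Kcnmb2 holds 8, the pericyte-like gene Kcnj8 holds 6 and the glucagon cell marker Kcnmb1 holds 1, beside a median of 6 over 32851 promoters. CANNTG is found in 66.2% of those promoters, and here only in that of Kcnj8. TATAAA, the TATA box, is found in 12.4% of all and in none of the 4. RefSeq's table held promoters for 68 of the 92 genes.

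The ether-a-go-go and KCNQ families of voltage-gated channels gave insulin cells most of their higher members. Of these 13 genes 5 were tested, and 3 of them, Kcnh1, Kcnh2 and Kcnq1, were higher in insulin cells, against 16.3% of all genes tested, with no call in glucagon or somatostatin cells. Kcnh1, a voltage-gated channel best known from the brain, stood at 20.1, 30.8, 22.0 and 25.4 CPM in insulin cells of mutant A, mutant B, WT A and WT B. In glucagon cells it stood at 3.60, 7.71, 6.80 and 7.22 CPM. In somatostatin cells it had no count in mutant A, mutant B and WT A, which allows up to 17.3, 7.67 and 10.3 CPM (3 counts), and stood at 20.3 CPM, 5 counts, in WT B. Insulin cells were above both other classes in each library, with a log2 difference of 2.33 ± 0.38 (SE, adjusted p = 0.00015), and Kcnh1 was the only member to mark them. Without WT B the fitted log2 difference was 5.69, a value that depends on the fit and is no bound, because all other somatostatin libraries were at 0. In Ppy cells Kcnh1 reached 53.2 CPM, 5 counts, in WT B and had no count in mutant B.

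Kcnh2, the ERG channel that repolarises heart muscle, varied widely between libraries. Insulin cells held 539, 33.2, 142 and 79.1 CPM in mutant A, mutant B, WT A and WT B, and glucagon cells held 40.8, 36.5, 75.8 and 34.7 CPM. Insulin cells were thus above glucagon cells in 3 libraries and just below them in mutant B. The log2 difference of insulin cells from the mean of the other classes was 1.51 ± 0.35 (SE, adjusted p = 0.0029), and it was 0.80 without mutant A. Across the libraries Kcnh2 in insulin cells had the same order as the insulin share of their counts, whose median was 28.2%, 3.36%, 14.6% and 7.91%. Whether the insulin share bears on the Kcnh2 level was not tested between libraries.

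Within each library, insulin cells were also divided at their median insulin share, and CPM was taken over counts other than insulin. This division was chosen after the values were seen and has no test. Kcnh2 stood at 896 CPM in the insulin-richer and 634 CPM in the insulin-poorer cells of mutant A, and at 39.3 and 30.04 CPM in mutant B. In WT A the richer and poorer cells stood at 192 and 146 CPM, and in WT B at 90.5 and 82.8 CPM. The insulin-richer cells were higher in all 4 libraries, by 1.09 to 1.41 times, in WT B on 204 and 203 counts. Kcnk3, the acid-sensitive leak channel, ran the other way in all 4, at 0.641 to 0.787 times, while Kcnh1, Kcnip1, Kcnmb2 and Kcnq1ot1 were higher in some libraries and lower in others. Only these 6 genes were divided so, and no share of all genes with 1 direction in all 4 libraries stands beside them. Whether the insulin share bears on their levels within libraries was not tested.

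**Figure D2:**
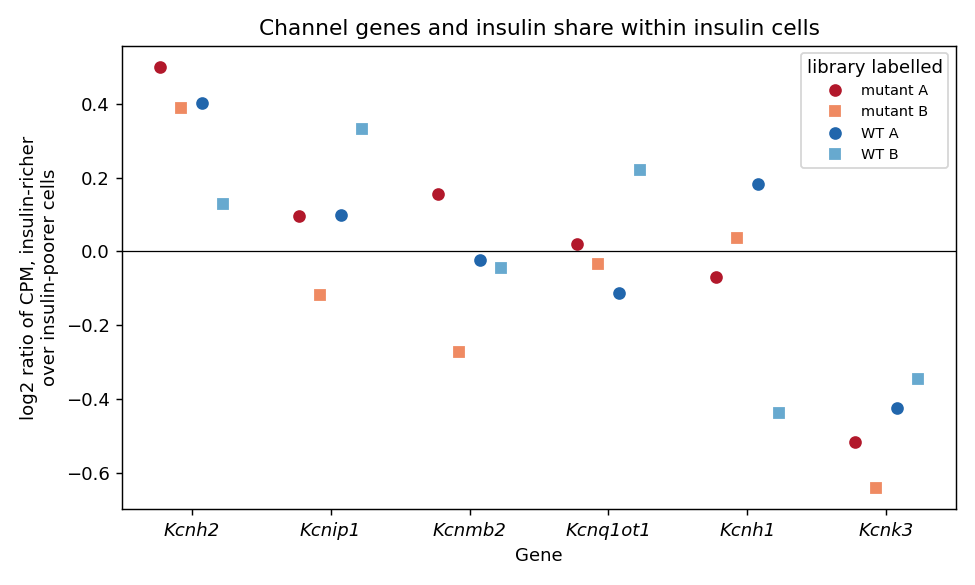
Ratio of CPM (log2, vertical axis) in the insulin-richer over the insulin-poorer insulin cells of each library, for 6 channel genes. Each point is 1 library (red mutant, blue WT, circles A, squares B). All 4 points lie above 0 for Kcnh2 and below 0 for Kcnk3.

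Kcnq1, which pairs with single-span KCNE subunits and is best known from heart and epithelia, stood at 19.9, 14.6, 16.2 and 23.7 CPM in insulin cells, in the order mutant A, mutant B, WT A, WT B. Glucagon cells held 16.8, 9.25, 5.83 and 11.2 CPM. The log2 difference of insulin cells from the other classes was 0.80 ± 0.26 (SE, adjusted p = 0.030). In WT B somatostatin cells stood at 28.5 CPM, 7 counts, above insulin cells, and the call was lost without mutant A, without mutant B or without WT A (adjusted p of 0.077, 0.13 and 0.14).

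Among the 17 pore subunits of the other voltage-gated families 6 were tested. In glucagon cells 1 was higher and marked the class and 2, Kcnb2 and Kcnc2, were lower. In insulin cells Kcnc2 was lower, and in somatostatin cells 1 member was higher and 1 lower. Kcnb2, a delayed rectifier, was lower in glucagon cells, at 25.2, 13.4, 20.4 and 18.4 CPM in the order mutant A, mutant B, WT A, WT B, against 30.3, 26.7, 26.6 and 33.4 CPM in insulin cells (log2 difference from the other classes -0.82 ± 0.23, SE, adjusted p = 0.020). Glucagon cells were below insulin cells in each library.

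Kcnc2, a fast voltage-gated channel of rapidly firing neurons, marked somatostatin cells. They held 28.9, 51.1, 20.6 and 52.9 CPM in mutant A, mutant B, WT A and WT B, on 5, 20, 6 and 13 counts. Insulin cells held 3.94 to 6.88 CPM and glucagon cells 3.89 to 7.21 CPM, so the classes did not overlap. The log2 difference was 2.74 ± 0.35 (SE, adjusted p = 2.6e-05). Its counts in somatostatin cells lie under the limit of 50 set for naming a marker, and it is named because only 2 members marked that class. None of the 10 modifier subunits, which form no channel of their own, had enough counts to be tested.

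Among the two-pore channels, which leak potassium at rest, 1 gene, Kcnk3, differed between glucagon and insulin cells by both contrasts. Of 14 members 3 were tested. Kcnk3 was higher in glucagon cells, Kcnk3 and Kcnk12 were lower in insulin cells, and Kcnk1 passed the test in no class. Kcnk3 stood at 264, 109, 316 and 111 CPM in glucagon cells of mutant A, mutant B, WT A and WT B. In insulin cells it stood at 29.1, 17.3, 34.4 and 19.4 CPM, and in somatostatin cells at 133, 40.9, 82.3 and 89.5 CPM. The lowest glucagon library lay above the highest insulin library. Glucagon cells were higher than the mean of the other classes by 2.00 ± 0.15 on the log2 scale (SE, adjusted p = 2.3e-08), and insulin cells were lower by the same kind of contrast (log2 difference -2.16 ± 0.17, SE, adjusted p = 2.4e-08). In glucagon and in insulin cells both A libraries held more Kcnk3 than both B libraries, while in somatostatin cells WT A lay below WT B.

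Kcnk3 was not confined to glucagon cells. Ppy cells held 312, 114, 319 and 202 CPM, above glucagon cells in each library, on 13 to 57 counts. With only 15 Ppy cells in WT B, this class stayed outside the main comparison. When it was added as a further class after the data were seen, 1 of 22 channel genes tested, Kcnk3, was higher in Ppy cells and marked them, against 1.78% and 0.774% of 9174 genes (log2 difference 1.60 ± 0.18, SE, adjusted p = 2e-06). In that fit Kcnk3 and Kcnq1ot1 no longer marked glucagon cells, while Kcnip3 and Kcnmb1 did, and none of the 22 marked insulin or somatostatin cells. Kcnk12, a two-pore channel whose subunits are silent or weakly active on their own, was lower in insulin cells in the main comparison (log2 difference -2.49 ± 0.53, SE, adjusted p = 0.0015). It stood at 3.87, 0.342, 0.344 and 0.971 CPM there, against 20.4, 1.03, 8.75 and 2.89 CPM in glucagon cells. In mutant B both levels lay under that of 3 counts, 0.514 CPM in insulin and 1.54 CPM in glucagon cells, so no firm order can be read there. Kcnk16, the two-pore channel typical of pancreatic islets, stood at only 1.15, 1.03, 2.41 and 0.583 CPM in insulin cells and was not abundant enough for the test.

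Free RNA can carry a transcript of one cell type into droplets of another. In insulin cells the median share of glucagon transcripts was 0.0588%, beside 16.2% in glucagon cells, and in glucagon cells the median share of insulin transcripts was 0.106%, beside 10.2% in insulin cells. These medians are per cell, and the rule on the leading hormone holds them low. Summed over cells, Gcg stood at 585 to 1883 CPM in insulin cells and at 113250 to 180106 CPM in glucagon cells. The Kcnk3 level in insulin cells averaged 25.1 ± 8.09 CPM, beside 200 ± 106 CPM in glucagon cells (SD, n = 4 each). Whether free RNA adds to the Kcnk3 level in insulin cells was not tested. A level whose share of the level in another class is at or under that of the glucagon transcripts is not read here as expression.

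**Figure D3:**
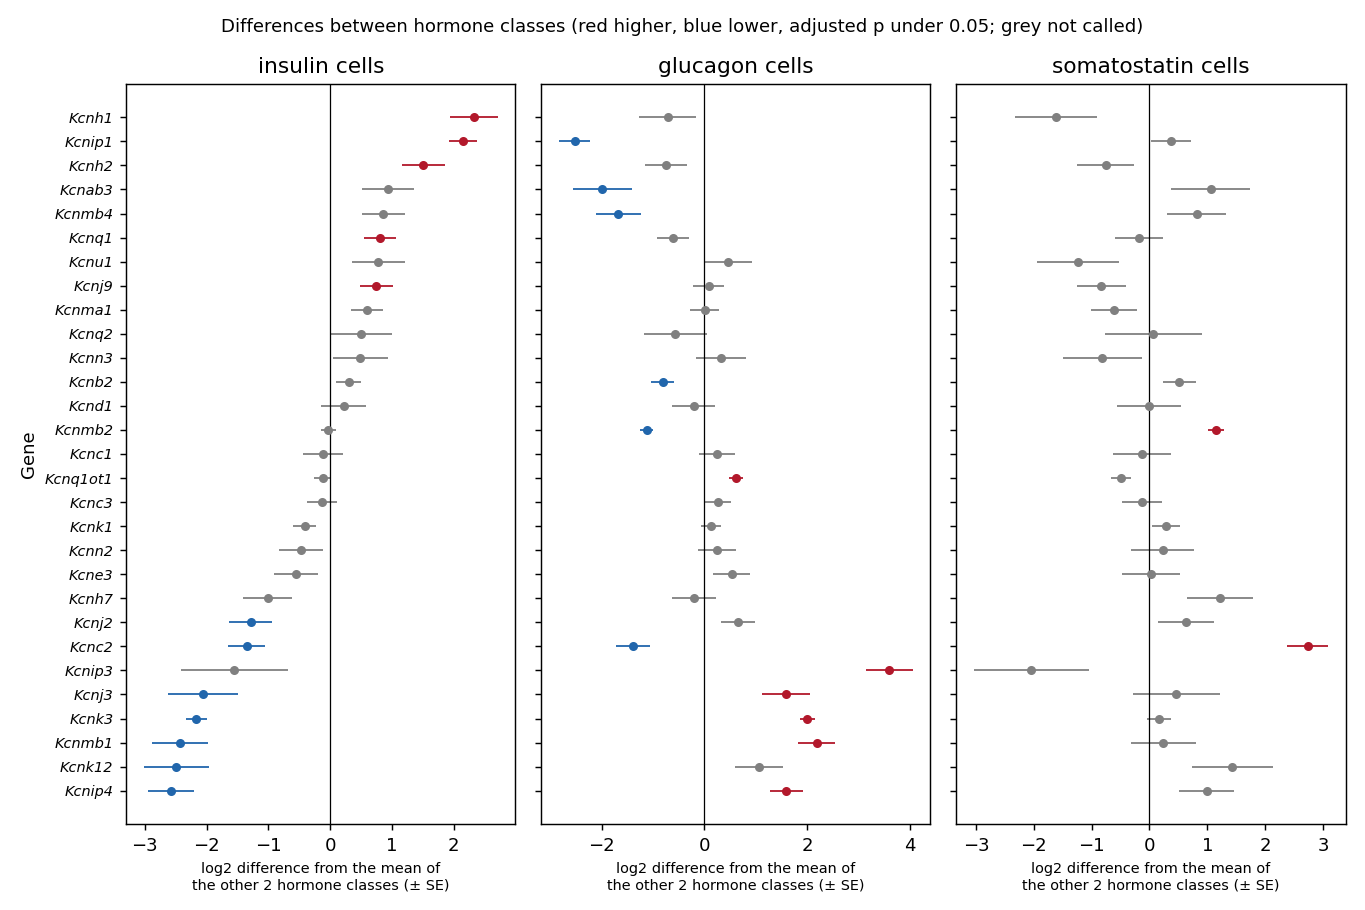
Log2 difference of each class from the mean of the other 2 hormone classes (horizontal axes, with SE) for 29 of the 30 channel genes tested, sorted by their value in insulin cells. Red and blue points passed the test as higher or lower, grey ones did not. Kcnk3, Kcnmb1, Kcnip4 and Kcnj3 are blue in insulin cells and red in glucagon cells, and Kcnip1 is red in insulin cells and blue in glucagon cells.

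Auxiliary subunits bind the pores and change their gating or surface level. Of 16 members 8 were tested. In glucagon cells 3 were higher and 4 lower, against 8.58% and 8.93% of all genes tested, and the lower ones were Kcnip1, Kcnmb2, Kcnmb4 and Kcnab3. In insulin cells 1 was higher and 2 lower, and in somatostatin cells 1 was higher and none lower. The calcium-binding KCNIP proteins, which raise the surface level of A-type channels, differed in opposite directions. Kcnip1 stood at 28.7, 117, 61.7 and 53.2 CPM in insulin cells of mutant A, mutant B, WT A and WT B. Glucagon cells held 7.21, 7.71, 4.86 and 9.39 CPM, and somatostatin cells 34.7, 38.3, 34.3 and 20.3 CPM. Insulin cells were higher by 2.15 ± 0.22 on the log2 scale (SE, adjusted p = 7.8e-07), but in mutant A somatostatin cells stood above them, so Kcnip1 did not mark the class.

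Kcnip3, also known as the transcriptional repressor DREAM, marked glucagon cells. It stood at 37.2, 17.99, 19.4 and 29.98 CPM there, against 4.30, 0.856, 0.459 and 4.27 CPM in insulin cells. In somatostatin cells only 2 counts were found, both in mutant B. The log2 difference was 3.60 ± 0.45 (SE, adjusted p = 1.4e-05), and without mutant B, the only library with somatostatin counts, the fitted value, no bound, was 6.29. Kcnip4 was higher in glucagon cells as well, at 12.0, 15.4, 30.1 and 10.1 CPM against 1.58, 3.60, 2.41 and 1.17 CPM in insulin cells, but somatostatin cells stood above them in mutant B and WT B.

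The beta subunits of the large-conductance calcium-activated channel were split by class. Kcnmb1, best known from smooth muscle, marked glucagon cells, at 7.21, 38.0, 39.9 and 17.3 CPM against 3.30, 3.42, 2.99 and 1.17 CPM in insulin cells and 5.78, 10.2, 23.99 and 4.07 CPM in somatostatin cells. Glucagon cells were highest by value in each library, on 6 to 74 counts (log2 difference 2.18 ± 0.36, SE, adjusted p = 0.00022). In mutant A, however, both levels lay under 17.3 CPM, the level of 3 counts in somatostatin cells. No firm order can be read in that library, though the rule for marking was met. Kcnmb2, which inactivates the channel, marked somatostatin cells. They held 156, 115, 134 and 175 CPM, against 79.6, 57.4, 68.5 and 98.9 CPM in insulin cells and 68.5, 34.9, 43.7 and 54.5 CPM in glucagon cells, with no overlap of somatostatin cells with either (log2 difference 1.15 ± 0.14, SE, adjusted p = 2.1e-05). Kcnma1, the pore itself, did not pass the test in any class, at 16.3 to 33.7 CPM in insulin cells, 12.8 to 26.4 CPM in glucagon cells and 3.43 to 32.6 CPM in somatostatin cells. Ppy cells held 163, 87.7, 61.5 and 128 CPM of Kcnmb2.

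Some members share their place in the genome with another gene. Kcnmb1 (GRCm38 chromosome 11, 33963013 to 33973641, plus strand) lies within Kcnip1 (33629339 to 33993152, minus strand), yet the first was higher in glucagon cells and the second in insulin cells. Kcnq1ot1 (chromosome 7, 143203458 to 143296549, minus strand) lies within Kcnq1 (143106362 to 143427042, plus strand). Kcnh1 overlaps Hhat and Kcnk3 overlaps Gm9899, each on the other strand. No source used here says whether counting used strand, so reads of such partners cannot be told apart.

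The inward rectifiers and the noncoding RNA gave smaller differences. Of 14 inward rectifiers 3 were tested. Kcnj3, a subunit of the G protein-gated channel, was higher in glucagon cells, at 13.2, 7.19, 9.72 and 5.42 CPM against 1.00, 2.40, 0.804 and 1.55 CPM in insulin cells. It lost that call without mutant A, without WT A or without WT B. Kcnj9, a further subunit of that channel, stood at 40.6, 9.59, 21.7 and 12.0 CPM in insulin cells and at 40.8, 7.71, 22.4 and 5.42 CPM in glucagon cells. Its call as higher in insulin cells (log2 difference 0.75 ± 0.27, SE, adjusted p = 0.047) was lost under 12 of 13 alternatives. Kcnq1ot1, an imprinted noncoding RNA, marked glucagon cells at 265, 120, 103 and 192 CPM, against 123, 102, 69.6 and 133 CPM in insulin cells (log2 difference 0.61 ± 0.14, SE, adjusted p = 0.0054).

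Beside the channels, 43 other genes of membrane excitability were listed, and 39 were tested in the same fit. In insulin cells 8 were higher, 10 lower and 6 marked the class, against 16.3%, 9.37% and 7.45% of all genes tested. They include Slc2a2, the glucose transporter of rodent beta cells, at 556, 730, 648 and 793 CPM in insulin cells and 11.7 to 20.2 CPM in glucagon cells (log2 difference 4.68 ± 0.28, SE, adjusted p = 8.0e-10), and the cation channel Trpm5 (log2 difference 4.13 ± 0.34, SE). In glucagon cells 2 were higher, 12 lower and 1 marked the class, against 8.58%, 8.93% and 5.05%. The marker was Gria2, a glutamate receptor subunit, at 130, 132, 79.7 and 125 CPM against 14.0 to 31.2 CPM in insulin cells. In somatostatin cells 8 were higher, 2 lower and 6 marked the class, against 5.61%, 6.54% and 4.09%. Abcc8, the sulfonylurea receptor of the islet ATP-sensitive channel, stood at 485, 74.1, 360 and 134 CPM there, against 232, 60.8, 200 and 110 CPM in insulin cells (log2 difference 0.59 ± 0.15, SE, adjusted p = 0.012). The sodium channel Scn3a and the calcium channel Cacna1h also marked somatostatin cells (log2 differences 1.71 ± 0.27 and 2.92 ± 0.37, SE). Ppy cells, outside this fit, held 358, 105, 380 and 85.1 CPM of Abcc8, above somatostatin cells in mutant B and WT A and below them in mutant A and WT B. For Scn3a, Ppy cells of mutant B stood at 193 CPM, beside 181 CPM in somatostatin cells, and were lower than those in the other libraries.

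**Figure D4:**
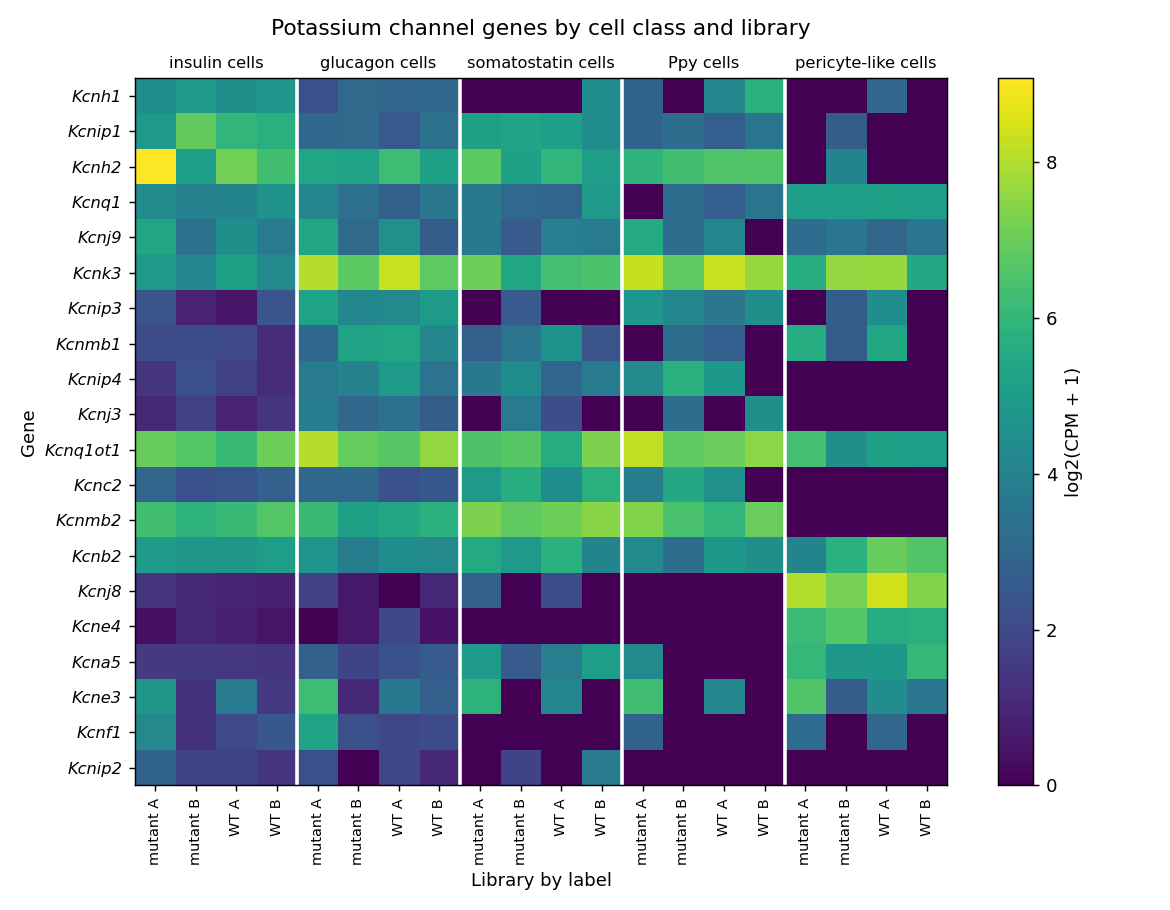
Log2(CPM + 1) of 20 channel genes named by rule (rows) in the 4 libraries of 5 classes of cells (columns). Kcnj8, Kcne4 and Kcna5 stand out in pericyte-like cells, where Kcnmb2, Kcnc2, Kcnj3 and Kcnip4 have no count, and Kcnk3 in glucagon and Ppy cells.

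Pericyte-like cells carried another set of channels. Their levels are a description without a test, since the cells were clustered on the same libraries. Kcnj8, the pore of the vascular ATP-sensitive channel, stood at 260, 146, 347 and 161 CPM in pericyte-like cells of mutant A, mutant B, WT A and WT B, on 32, 27, 50 and 15 counts. In insulin cells it stood at 0.777 to 1.58 CPM, in glucagon cells at 0 to 2.40 CPM and in somatostatin cells at 0 to 5.78 CPM, and Ppy cells had no count, which allows up to 16.8 to 31.9 CPM (3 counts). Every pericyte-like library was above every library of the hormone classes. Pericyte-like cells held 124 of the 251 Kcnj8 counts over all kept cells, so Kcnj8 was not confined to them. Abcc9, the sulfonylurea receptor that pairs with Kcnj8, stood at 991, 1707, 1117 and 1195 CPM in pericyte-like cells and at 3.30 to 7.89 CPM in insulin cells. Outside the hormone classes, fibroblast-like cells held 133 to 230 CPM of Abcc9, contractile-like cells 32.7 to 384 CPM and unnamed cells 79.6 to 514 CPM. The fibroblast-like 230 CPM, in mutant A, rests on 7 counts. The contractile-like levels rest on 22, 1 and 4 counts in mutant B, WT A and WT B. Kcnj8 and Abcc9 lie 16247 bp apart on chromosome 6 with 0 genes between them.

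Kcne4, a single-span subunit that restrains Kcnq1 channels, stood at 73.1, 103, 48.5 and 53.8 CPM in pericyte-like cells and at 0.287 to 1.03 CPM in insulin cells. Only 40 of its 204 counts over all kept cells came from pericyte-like cells, so Kcne4 was not particular to them. Kcna5, a delayed rectifier of vascular muscle, stood at 65.0, 27.0, 27.7 and 64.6 CPM, on 4 to 8 counts. Kcnq1, at 32.3 to 34.7 CPM on 18 counts in all, was by value above each hormone class in every library too. In WT B its 32.3 CPM is the level of 3 counts, which in Ppy cells give 31.9 CPM, so no firm order can be read in that library. Kcne3 stood at 97.5, 5.40, 20.8 and 10.8 CPM on 12, 1, 3 and 1 counts. In mutant B and WT B its level rests on 1 count each and Ppy cells had no count, which allows up to 26.3 and 31.9 CPM (3 counts), so no order is given there. The mean of Kcne3 in pericyte-like cells was 33.6 CPM, and 12.3 CPM without mutant A. Among genes with at least 20 counts in pericyte-like cells, 24.4% of 4855 were above all 4 hormone classes in each library, beside 3 of the 7 members with that many counts, Kcnj8, Kcne4 and Kcna5. Kcnk3 was uneven there, at 48.7, 194, 201 and 43.1 CPM. A further cluster of 92 cells, 12, 35, 5 and 40 per library, scored highest for pericyte markers but was led by other genes such as Casq2 and Myh11, and stayed unnamed.

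The genotype labels were compared within each class, 2 libraries labelled mutant against 2 labelled WT. No channel gene passed the test by edgeR or by DESeq2, and none reached an unadjusted p under 0.05 by edgeR. This held for 62 members tested in insulin cells, 29 in glucagon cells, 8 in somatostatin cells, 3 in pericyte-like cells and 77 over all cells. No gene of any kind passed either, 0% of 16585, 11377, 4906, 2958 and 20040 genes. With 2 libraries a label and wide differences between them, a gene that missed the threshold is not shown to be alike under both labels. By edgeR 45, 23, 15, 29 and 25 genes had an unadjusted p under 0.05, and by DESeq2 37, 22, 5, 8 and 21.

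In insulin cells the members of smallest p were Kcnf1, Kcnh2 and Kcnip2. Kcnf1, a modifier of delayed rectifiers, stood at 18.2 and 1.54 CPM in mutant A and mutant B, against 2.99 and 4.47 CPM in WT A and WT B (log2 difference 1.41 ± 0.86, SE, adjusted p = 1.0). Kcnh2, at 539 and 33.2 CPM against 142 and 79.1 CPM, had a log2 difference of 1.31 ± 0.86 (SE), which turned to -1.65 without mutant A. Both had their highest and their lowest library under the mutant label. Kcnip2, a KCNIP subunit, stood at 6.45 and 2.57 CPM in the mutant libraries and 2.64 and 1.55 CPM in the WT libraries (log2 difference 1.07 ± 0.79, SE). Of the 62 members 5 were above and 2 below in both mutant libraries, against 4.23% and 7.15% of all genes tested. Over all cells 2 of 77 were above and 2 below, against 4.23% and 5.48%.

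The 2 pairs of libraries with the same number went opposite ways. In insulin cells 39 of 62 members, 62.9%, were higher in mutant A than in WT A and lower in mutant B than in WT B, beside 46.1% of all genes tested. Another 8 members went the other way round, and 15 had the same direction in both. A few auxiliary or calcium-activated members, chosen after their values were seen, show how mutant A and WT B can stand together. Of these, Kcnmb4 and Kcnn3 went as the 8 members did, and Kcnab3 as the 39 did. Kcnmb4 stood at 6.59 and 47.4 CPM in mutant A and mutant B, against 38.7 and 13.2 CPM in WT A and WT B. Kcnn3, a small-conductance calcium-activated channel, stood at 4.44 and 19.9 CPM against 21.4 and 6.22 CPM, and Kcnab3 at 13.9 and 4.45 CPM against 3.21 and 16.1 CPM. Sin3a itself had its higher levels in mutant A and WT B, as given above, and whether that bears on these values was not tested.

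**Figure D5:**
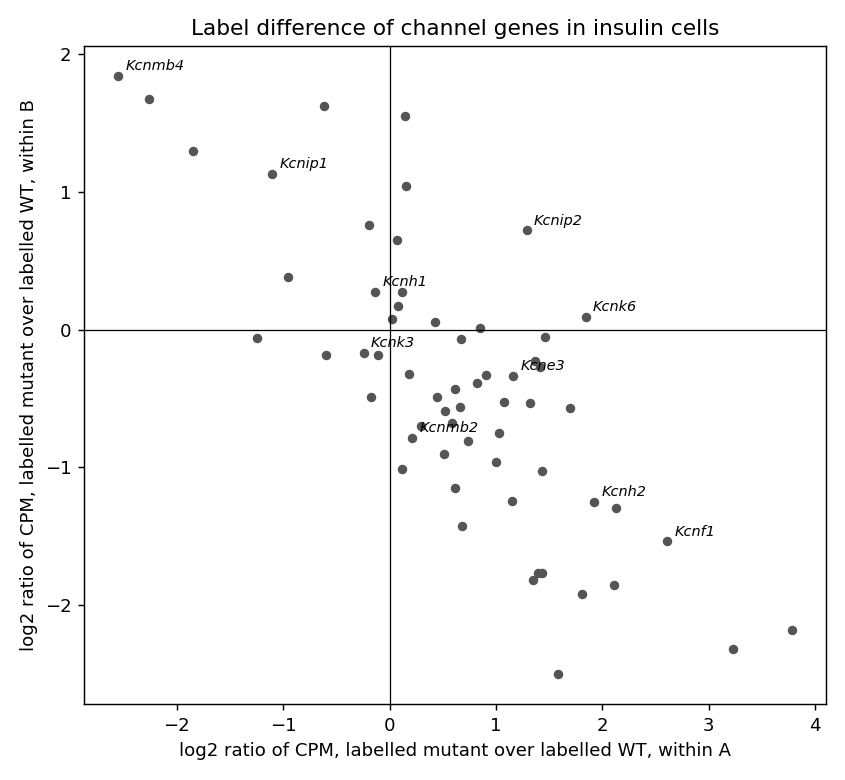
Log2 ratio of CPM in insulin cells, labelled mutant over labelled WT, within A (horizontal axis) and within B (vertical axis), for the 61 of 62 tested channel genes with a count in each library. Most points lie at the lower right, higher in mutant A and lower in mutant B.

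In glucagon cells the members of smallest p were Kcne3, Kcnj9 and Kcnh2. Kcne3 stood at 75.7 and 1.03 CPM in mutant A and mutant B, against 11.7 and 5.78 CPM in WT A and WT B (log2 difference 2.05 ± 1.11, SE), and Kcnj9 at 40.8 and 7.71 CPM against 22.4 and 5.42 CPM (log2 difference 0.81 ± 0.84, SE). Kcnh2, at 40.8 and 36.5 CPM against 75.8 and 34.7 CPM, had a log2 difference of -0.47 ± 0.56 (SE). Of the 29 members 1 was above and 1 below in both mutant libraries, against 6.25% and 7.13% of all genes tested. In somatostatin cells Kcnh2 and Kcnmb2 had log2 differences of 0.57 ± 0.73 and -0.18 ± 0.52 (SE). Of the 8 members tested there 1 was below in both mutant libraries and none above in both, against 9.15% and 9.72% of all genes tested. In pericyte-like cells Kcnb2 stood at 16.2 and 54.0 CPM in mutant A and mutant B, against 125 and 96.9 CPM in WT A and WT B (log2 difference -1.53 ± 0.77, SE, adjusted p = 1.0). Both mutant libraries were below both WT libraries for Kcnb2, the 1 such member of 3, as for 13.3% of the genes tested in that class, and 9.87% of genes were above in both, with no member. Kcnj8 and Kcnk3 had log2 differences of -0.29 ± 0.56 and 0.01 ± 0.79 (SE) there.

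Whether the label difference itself differed between glucagon and insulin cells was tested for 48 members, and none passed, as none of 14409 genes did by edgeR. An unadjusted p under 0.05 was reached by 90 genes in the higher and 120 in the lower direction, and by no member. Kcnh2, picked after its values were seen, depended on the libraries used. Without mutant B its label difference in glucagon cells minus that in insulin cells was -2.93 ± 0.36 on the log2 scale (SE). The single remaining mutant library was there assumed to vary like the others. Without mutant A the same difference of Kcnh2 was 1.24 ± 0.34 (SE), of the opposite sign. The share of all genes that turn sign in this way is not given here.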

How the data were processed

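The deposited values are whole-number counts per gene and barcode for 4 inDrop libraries, not normalized by the authors. Per the submitters' processing notes the builds GRCh38 and GRCm38 were named. No source used here gives the aligner, annotation, counting program, use of strand, collapsing of molecular barcodes or selection of barcodes. Total counts per library were 9282495 in mutant A, 12236110 in mutant B, 12835199 in WT A and 10350699 in WT B.

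Filters of 500 counts and 250 genes as minimum and 25% mitochondrial counts as maximum passed 6566 of 6948 barcodes. Scrublet called 40 of them doublets, 0.609%, and they were removed. A cell belonged to a hormone class where its leading hormone had at least 10 counts, 1% of its counts and 3 times each other hormone. The other cells were clustered with scanpy 1.11.5 (2000 variable genes without channel genes, 30 components, 15 neighbours, Leiden resolution 1, seed 1) and named X-like from marker lists, with at least 3 detected markers. Sums of counts over the cells of a class in a library were tested where each library held 20 or more such cells. Ppy cells, 15 in WT B, were tested only in a comparison added later.

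Sums were tested in R 4.3.3 with edgeR 4.0.16 (quasi-likelihood F test, TMM factors, filterByExpr, Benjamini-Hochberg over all genes tested), with the library as a block between classes and no block between labels, and with DESeq2 1.42.0 as an alternative. SEs were computed as the unsigned log2 difference over the root of F. Replicates are described as biological, 2 per genotype. Between labels, p-values measure against the spread between these libraries. Between classes the library is a block, so p-values measure against the variation of the class difference from library to library. Intervals and floors (3 counts) cover counting error only. Coordinates are from GENCODE M21 (GRCm38). The test was checked on simulated data, where it recovered most changed genes between classes but hardly any between labels, so a missed call between labels carries little information.

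Members and lists were chosen with earlier results of these data known. Named are, per class, up to 6 marking members with at least 50 counts there, 6 members of highest level in pericyte-like cells above all hormone classes, the 3 of smallest p per label comparison where none passed, members with a mean of at least 50 CPM in a hormone class, and those in counts of 5 or fewer. Other members are named as having been chosen after their values were seen, or to illustrate a role. Counts of members may include genes left unreported here. Of the features 2 were not mouse, with 6 counts, and were left out.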

Additional observations from a re-analysis of the deposited data

Results flagged for a closer look

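For each named gene and class the highest or lowest of the 4 libraries was set against the others by Dixon's criterion, which chance passes for about 1 in 20 groups. Of 39 groups 3 passed, all in glucagon cells. Kcne3, a single-span auxiliary subunit, stood at 75.7 CPM in mutant A, far above 1.03 CPM in mutant B, 11.7 CPM in WT A and 5.78 CPM in WT B. Kcnf1, a modifier subunit, stood at 38.4 CPM in mutant A, beside 3.60 CPM in mutant B, 2.92 CPM in WT A and 3.25 CPM in WT B. Kcnh2, the ERG channel, stood at 75.8 CPM in WT A, beside 40.8 CPM in mutant A, 36.5 CPM in mutant B and 34.7 CPM in WT B. In insulin cells mutant A was also the highest library for Kcne3, at 26.7 CPM, and for Kcnf1, at 18.2 CPM, while for Kcnh2 it was mutant A at 539 CPM.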

How the results depend on the processing

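Counts of marking members changed with the cells or libraries used. Members marking insulin cells were 2 with no filter on low counts, with classes from clusters or with a mitochondrial cap of 10%, 0 with Ppy cells added, and 1 to 3 when a library was left out. Members higher in insulin cells were 3 with DESeq2, 15 with no filter and 3 with no library block, and 3 to 6 when a library was left out, and members lower in them were 4 with no library block. In glucagon cells marking members were 3 with no library block and 2 with Ppy cells added, higher members 4 and 3 under the same settings, and lower members 2 with no library block and 3 to 5 when a library was left out. In somatostatin cells marking members were 4 with no filter and 0 with Ppy cells added, higher members 4 with no filter or with classes from clusters, and lower members 5 with no filter, 2 with a leading hormone 10 times the next and 1 to 2 when a library was left out. Kcnh1, Kcnip1 and Kcnh2 in insulin cells, Kcnip3, Kcnmb1 and Kcnk3 in glucagon cells, and Kcnc2 and Kcnmb2 in somatostatin cells passed as higher under all 13 alternatives tried. Kcnq1 lost its call under 5 of 13, Kcnj9 under 12 of 13, Kcnj3 under 4 of 10, Kcnq1ot1 under 2 of 13 and Kcnip4 under 1 of 13. The causes were not tested.

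Label differences, none called, turned sign when a library was left out, over ranges of log2 differences of -1.12 to 2.25 for Kcnf1 and -1.65 to 2.19 for Kcnh2 in insulin cells, -2.83 to 3.09 for Kcne3, -0.61 to 1.91 for Kcnj9 and -0.89 to 0.061 for Kcnh2 in glucagon cells, -0.48 to 1.23 for Kcnh2 and -0.50 to 0.048 for Kcnmb2 in somatostatin cells, and -0.84 to 0.38 for Kcnj8 and -1.34 to 1.57 for Kcnk3 in pericyte-like cells. Kcnip2 in insulin cells kept its sign, at 0.36 to 1.60, as did Kcnb2 in pericyte-like cells, at -2.67 to -1.05. With classes from clusters Kcnk3 in pericyte-like cells turned to -0.14, and it was -0.14 with the 10% cap and -0.16 at resolution 2. The label difference of Kcnh2 in glucagon cells minus that in insulin cells also turned sign when a library was left out. Kcnq1 in pericyte-like cells averaged 27.9 CPM at resolution 2 and 31.3 CPM with the 10% cap, beside 33.0 CPM.

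With the title number as a replicate block 0 members were called in any class, and Kcnh2 in insulin cells had a log2 difference of 0.39. Deviations of same-numbered libraries correlated at 0.07 in insulin, 0.28 in glucagon, 0.37 in somatostatin and 0.58 in pericyte-like cells, over 2 pairs only. What the number means is not given, so it is treated as a shared number and not as a pairing. Leaving out a library leaves 1 library under a label, assumed to vary like the others. Depth limits Ppy, somatostatin and pericyte-like cells most, where 1 count is a large share of a level.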

Other observations

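Other clusters carried channel genes of their own, given as levels without a test. Schwann-like cells held Kcna6 at 257, 657, 624 and 658 CPM and Kcna2 at 257, 199, 229 and 244 CPM in mutant A, mutant B, WT A and WT B, both voltage-gated channels of myelinated axons and glia, on 4 to 43 counts. Ductal-like cells held Kcnk1, a two-pore channel, at 123, 121, 266 and 128 CPM, Kcnq1 at 202, 63.2, 102 and 79.5 CPM and its epithelial partner Kcne3 at 179, 45.3, 54.5 and 56.4 CPM. Contractile-like cells, found in 3 libraries, held Kcnk3 at 945 CPM in mutant B, 1143 CPM in WT A and 1534 CPM in WT B, above the level in any glucagon cell library. These levels rest on 88, 35 and 16 counts from only 38, 6 and 3 cells. Neuron-like cells, 21 in all, held Kcnq3, a subunit of the M-current, at 193, 371, 199 and 485 CPM. Kcnj9 in glucagon cells, picked after its values were seen, was higher in the A than in the B libraries under both labels. It stood at 40.8 and 22.4 CPM in mutant A and WT A, and at 7.71 and 5.42 CPM in mutant B and WT B. The share of all genes with that order is not given here.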
